A study of Mus musculus with 6 samples.

Results

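The genes described here encode the enzymes that cut inactive precursor proteins into hormones, growth factors and receptors: the proprotein convertases Furin, Pcsk1, Pcsk2, Pcsk5, Pcsk6 and Pcsk7, and the carboxypeptidases Cpe, Cpd, Cpm and Cpz. The 10 genes were chosen by function, around Cpe, whose difference between the groups of these same arrays was already known. Differences of members, and whether each was called in a fit over all genes, are therefore given as a description and are not evidence about the family, which was not tested as a set. Of the 10 genes, 9 were measured, among 19938 genes with a probe set (the group of array probes that reads 1 transcript) of their own. Pcsk2 had no probe set of its own, so its expression was not analysed here, and only its promoter sequence was counted. Each of the 9 was read by 1 probe set, so the rule that keeps the brightest of several probe sets made no choice among them.

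The arrays came from mouse pre-B cells of strain 129P2/OlaHsd that had been transformed with BCR-ABL1, the fusion kinase of Philadelphia chromosome-positive leukaemia. In the CRE-ERT2 group (n = 3) the cells carried a construct labelled PMIP-CRE-ERT2, which encodes a Cre recombinase that tamoxifen switches on. In the ERT2 group (n = 3) the construct was PMIP-ERT2, which lacks the recombinase. Cells of both groups were Ptpn6 +/fl, with 1 floxed and 1 unfloxed allele of the phosphatase SHP-1, were resistant to puromycin, and had 0.5 micromolar 4OH-Tamoxifen for 2 days, so that no group was left untreated. A change caused by Cre itself cannot be told apart from one caused by recombination of the floxed allele, since no cells without that allele were compared. The age and sex of the source animals, and whether the 3 samples of a group were separate cultures, are not stated in the sources used here, so intervals and p-values cover only how far these samples lie apart, and that spread may be technical.

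Convertases cut a precursor after pairs or clusters of basic residues, and a carboxypeptidase then removes the basic residues left at the new end of the peptide. Furin and Pcsk7 do this in the trans-Golgi network of most cells, Pcsk5 and Pcsk6 act on growth factor precursors at the cell surface and in the matrix, and Pcsk1 and Pcsk2 work in the secretory granules of endocrine cells and neurons, where Cpe trims their products. In lymphoid cells the convertases are best known for maturing precursors such as those of transforming growth factor beta and the Notch receptors.

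Ptpn6, the gene of the floxed allele, had 11.36, 11.25 and 11.20 log2 units in the CRE-ERT2 arrays, against 11.25, 11.39 and 11.39 in the ERT2 arrays. The groups overlapped, and the difference was -0.07 with a 95% confidence interval from -0.24 to 0.10. Whether its probe set lies in the deleted part is not known, so the value does not check the labels. The groups are named as they are labelled throughout.

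Cpe was higher in the CRE-ERT2 cells, Cpm was lower, and the other 7 measured members differed by little. Cpe, the carboxypeptidase of endocrine granules, was 2.94-fold higher, and Cpm, a carboxypeptidase anchored to the outer face of the plasma membrane, was 1.89-fold lower. Both are among the 914 of 19938 genes (4.58%) that limma called, meaning an adjusted p under 0.05 over all genes. In each direction 1 of the 9 measured members was called, against 2.3% of all genes called higher and 2.28% called lower. The groups did not overlap for 2 of the 9, against 22.5% of all genes. Nothing is read from these counts, because the contrast was known when the family was put together. The median log2 difference was -0.01 over the 9 members and -0.03 over all genes.

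**Figure D1:**
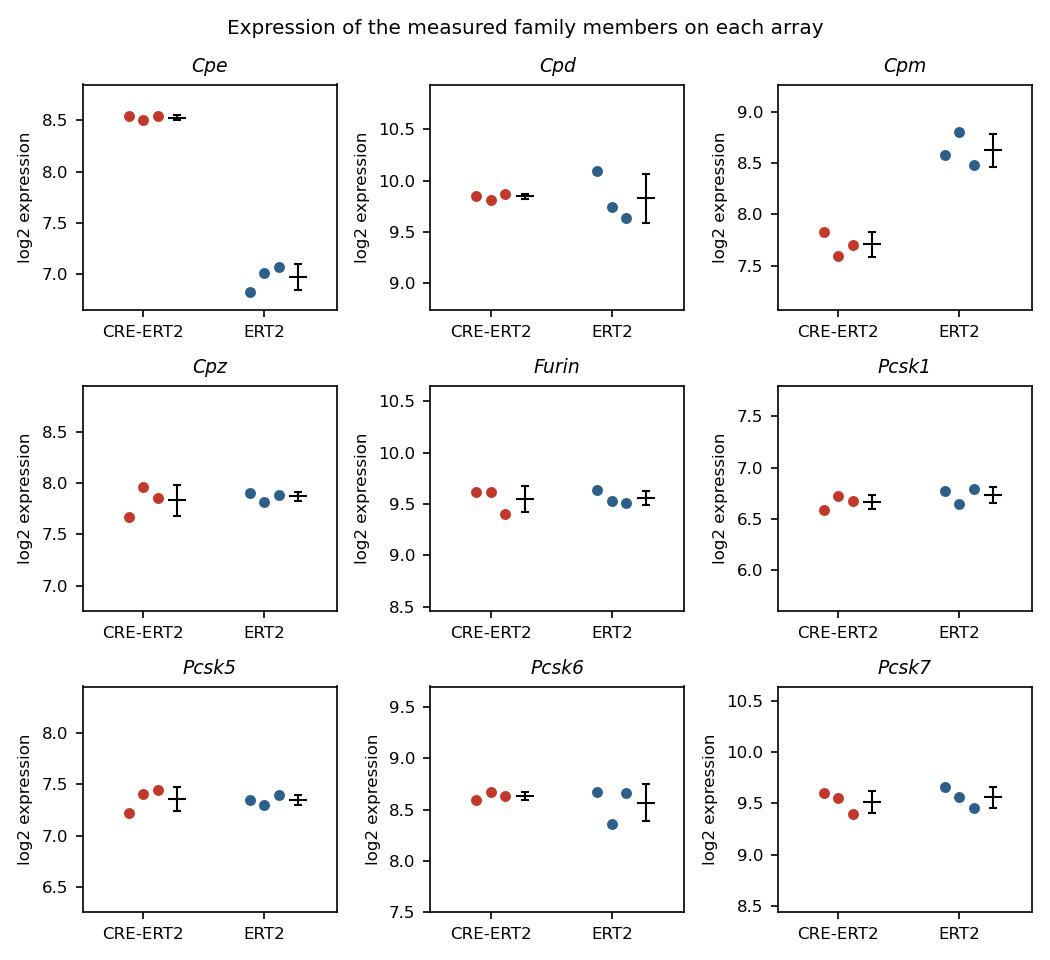
Log2 expression of each measured member (y axis, log2 units; the axis of every panel spans the same range around that gene's mean) on the 3 CRE-ERT2 arrays (red, left) and the 3 ERT2 arrays (blue, right), with the mean and SD of each group in black. Only the panels of Cpe and Cpm show groups that do not overlap.

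Cpe had 8.54, 8.50 and 8.54 log2 units in the CRE-ERT2 arrays, against 6.83, 7.01 and 7.07 in the ERT2 arrays. All 3 CRE-ERT2 arrays lay above all 3 ERT2 arrays, and they lay closer together. The means were 8.53 ± 0.02 in CRE-ERT2 and 6.97 ± 0.13 in ERT2 (SD, n = 3 each). Cpe thus differed by 1.56 (standard error 0.08), and the 95% confidence interval of 1.38 to 1.73 corresponds to 2.61-fold to 3.31-fold. Of all genes tested, 4 had a larger increase. The ERT2 level of Cpe lay under 7.37, the mean level that a share of 0.333 of all genes did not exceed, and its CRE-ERT2 level lay above it. A value near background understates a fold difference, and signal over background is unknown here, so the size of this one is uncertain.

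Cpm cuts single basic residues from the ends of extracellular peptides such as kinins. It had 7.83, 7.59 and 7.70 log2 units in the CRE-ERT2 arrays, against 8.58, 8.80 and 8.48 in the ERT2 arrays. Every CRE-ERT2 array lay below every ERT2 array. The means were 7.71 ± 0.12 in CRE-ERT2 and 8.62 ± 0.16 in ERT2 (SD, n = 3 each), a difference of -0.91 with a standard error of 0.09. Its 95% confidence interval ran from -1.12 to -0.71, a ratio of 0.460 to 0.611. Of all genes tested, 23 had a larger decrease. The difference of Cpm was thus opposite in sign to that of Cpe; both enzymes remove basic residues.

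In humans CPM is also known as a protein that appears as monocytes turn into macrophages, so genes of other cell types are set beside it. Of 6 myeloid genes measured (Itgam, Csf1r, Lyz2, Mpo, Elane and Cd14), 0 were called in either direction with limma, and 1 had an unadjusted p under 0.05. That gene was Lyz2, which was lower, like Cpm (-0.22, limma adjusted p = 0.200), with groups that did not overlap. The differences of the 6 genes lay between -0.22 and 0.13, with a median of 0.01. The mean of the 6 genes lay between 7.33 and 7.45 log2 units in the CRE-ERT2 arrays and between 7.36 and 7.43 in the ERT2 arrays. Of 4 neuroendocrine genes (Chga, Syp, Neurod1 and Insm1), 0 were called with limma and 1 had an unadjusted p under 0.05. That gene was Insm1, which was lower (-0.20, limma adjusted p = 0.174), with groups that did not overlap. The mean of the 4 genes was 7.866 to 8.028 in CRE-ERT2 and 8.002 to 8.061 in ERT2. The T cell, natural killer, mast cell, erythroid and stromal lists also had 0 called genes of 6, 4, 5, 3 and 4 measured, and 1 of these genes, in the natural killer list, had an unadjusted p under 0.05. Of 4 plasma cell genes, 1 was called, the syndecan gene Sdc1, which fell (-0.44, limma adjusted p = 0.0209), and 2 had an unadjusted p under 0.05. The second was the J chain gene Igj, which differed the other way, by 0.34 (limma adjusted p = 0.120), with groups that did not overlap. For the plasma cell genes the list mean was 9.37 to 9.56 in CRE-ERT2 and 9.45 to 9.50 in ERT2. Over all genes, 4.58% were called and 16.4% had an unadjusted p under 0.05, so 0 calls in a list this short says little. The part of these cell types in the results was not tested.

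The 9 pre-B cell genes measured had a mean of 12.61 to 12.68 log2 units in the CRE-ERT2 arrays and 12.48 to 12.56 in the ERT2 arrays. They include Cd79a, Cd79b, Pax5, Ebf1 and the surrogate light chain genes Vpreb1 and Igll1. Of the 9, 1 was called, against 4.58% of all genes. It was the terminal transferase gene Dntt, which adds bases at antigen receptor joints and rose (0.48, limma adjusted p = 0.00369). An unadjusted p under 0.05 was found for 2 of the 9, against 16.4% of all genes. The second was Blnk, also higher (0.21, limma adjusted p = 0.126). The groups did not overlap for 4 of the 9, against 22.5% of all genes: Cd79b, Igll1, Blnk and Dntt, all higher in CRE-ERT2. The list mean did not overlap between the groups either. The part of these genes in the results was not tested.

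The 250 bases before the start of Cpm, the carboxypeptidase that was lower, and of Cpd, which like Cpz was nearly level, are shown so that both can be read beside their values. They come from RefSeq promoters of build GRCm38.p6, which list 9 of the 10 genes, all but Cpe. Capitals mark the GC box, GGGCGG on either strand, a common element of promoters.
Cpm, chr10:117629250-117629499, plus strand: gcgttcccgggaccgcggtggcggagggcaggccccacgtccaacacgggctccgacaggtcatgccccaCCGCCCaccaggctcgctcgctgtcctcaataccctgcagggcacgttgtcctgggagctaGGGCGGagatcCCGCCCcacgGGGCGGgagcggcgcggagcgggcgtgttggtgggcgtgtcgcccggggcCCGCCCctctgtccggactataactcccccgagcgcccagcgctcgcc
Cpd, chr11:76847009-76847258, minus strand: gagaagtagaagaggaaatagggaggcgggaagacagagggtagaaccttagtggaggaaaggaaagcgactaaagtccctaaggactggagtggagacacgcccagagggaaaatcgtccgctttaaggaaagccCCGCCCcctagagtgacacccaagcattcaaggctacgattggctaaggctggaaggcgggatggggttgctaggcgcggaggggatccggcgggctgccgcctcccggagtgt

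The Cpm window holds 5 GC boxes, 30 CpG dinucleotides and 74.4% G or C. The Cpd window holds 1 GC box, 14 CpG dinucleotides and 58.4% G or C. Over 32851 mouse promoter windows of the same length, the median was 6 CpG dinucleotides and 52.4% G or C, and 32.7% held a GC box on either strand. Of the 10 windows of the family (Furin has 2 starts), 8 held a GC box and G or C ranged from 46.8% in Pcsk1 to 83.2% at a start of Furin. Among other members not called, G or C was 81.2% in Pcsk6 and 80.0% in Pcsk7, with 2 and 3 GC boxes. It was 57.6% in Cpz, with 1 GC box. The letters TATAAA, searched on both strands, were in 1 window, at the other start of Furin, against 12.4% of all windows. These matches describe the letters only and say nothing of which factors bind.

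Cpd, a carboxypeptidase that spans the membrane and cycles between the trans-Golgi network and the cell surface, had 9.86, 9.81 and 9.87 log2 units in the CRE-ERT2 arrays, against 10.10, 9.75 and 9.64 in the ERT2 arrays. The CRE-ERT2 values lay inside the range of the ERT2 values, which were spread more widely. The difference was 0.02 with a 95% confidence interval from -0.21 to 0.24. Its sign changed with the ERT2 array left out: it was 0.15 without replicate 1, -0.02 without replicate 2 and -0.08 without replicate 3, and was not called in any of these. Cpz is a secreted carboxypeptidase of the matrix with a domain that can bind Wnt proteins. It had 7.67, 7.96 and 7.86 in CRE-ERT2 arrays, against 7.90, 7.82 and 7.89 in ERT2 arrays. The groups overlapped, with a difference of -0.04 (95% confidence interval from -0.22 to 0.14).

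**Figure D2:**
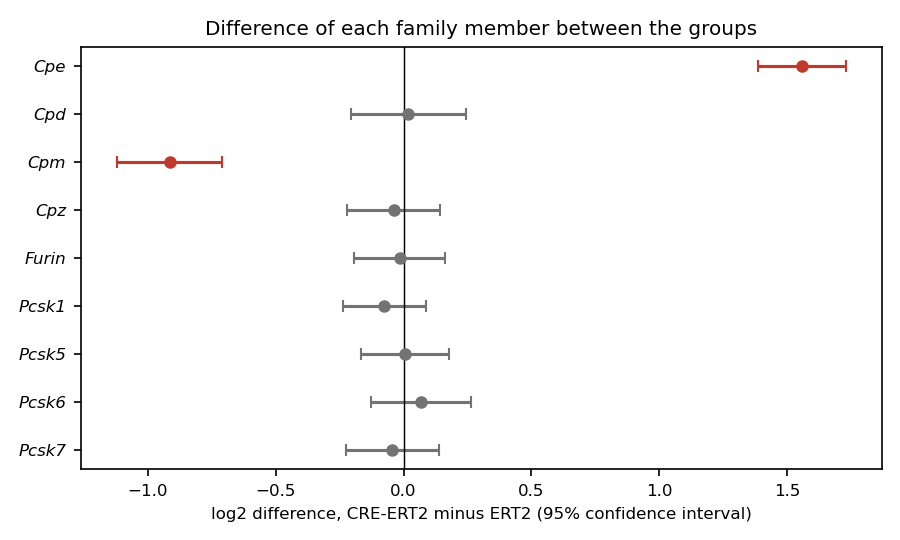
Log2 difference of each measured member, CRE-ERT2 minus ERT2 (x axis), with its 95% confidence interval from limma. Red points are genes called over the whole table: Cpe at 1.56 and Cpm at -0.91. Grey points are the 7 others, between -0.07 and 0.07.

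None of the 5 convertases measured was called with limma in either direction, against 4.58% of all genes. Of the 5, 0 had an unadjusted p under 0.05, against 16.4% of all genes. Nothing is read from counts over so few genes. Furin, the convertase most cells use in the trans-Golgi network, had 9.62, 9.62 and 9.40 log2 units in the CRE-ERT2 arrays, against 9.64, 9.53 and 9.51 in the ERT2 arrays. The groups overlapped. The difference of Furin was -0.01, and its 95% confidence interval of -0.19 to 0.16 corresponds to ratios of 0.875 to 1.12. Pcsk7, which works in the same compartment and is known for releasing the soluble transferrin receptor, had 9.60, 9.55 and 9.39 in CRE-ERT2 arrays, against 9.66, 9.57 and 9.45 in ERT2 arrays. Its groups overlapped too, with a difference of -0.04 (95% confidence interval from -0.23 to 0.14).

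Pcsk5 and Pcsk6, which process growth factor precursors of the transforming growth factor beta family, were likewise close between the groups. Pcsk5 had 7.22, 7.40 and 7.44 log2 units in the CRE-ERT2 arrays, against 7.35, 7.30 and 7.40 in the ERT2 arrays, a difference of 0.01 (95% confidence interval from -0.17 to 0.18). Pcsk6 had 8.59, 8.68 and 8.63 in CRE-ERT2 arrays, against 8.67, 8.36 and 8.67 in ERT2 arrays, a difference of 0.07 (95% confidence interval from -0.13 to 0.26). In both genes the groups overlapped. The lower mean of Pcsk6 in ERT2 came from replicate 2, and the difference was -0.04 without it.

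Pcsk1, the convertase of endocrine granules that cuts proinsulin and pro-opiomelanocortin, had 6.59, 6.73 and 6.67 log2 units in the CRE-ERT2 arrays, against 6.77, 6.65 and 6.79 in the ERT2 arrays. The groups overlapped, and the difference was -0.07 (95% confidence interval from -0.24 to 0.09). Thus Pcsk1, whose products Cpe trims, was not called where Cpe was, and whether it is expressed at all cannot be read from these values. The mean levels of Pcsk1 and Pcsk5 also lay under 7.37, and those of the other 7 measured members above it. Across the 7 members that were not called, the intervals together reached from -0.24 to 0.26, a ratio of 0.848 to 1.20, so a difference outside that range lay outside the interval of each.

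The genes that work with these enzymes were compared in the same fit. Of 99 companion genes listed by function, 92 were measured: 1 rose and 0 fell with limma, where 4.58% of all genes were called. Of the 92, 9 (9.78%) had an unadjusted p under 0.05, against 3260 (16.4%) of all genes. Their median log2 difference was 0.00, beside -0.03 for all genes. The lists were drawn up with earlier results of these arrays known. No list was compared with other genes by a test.

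**Figure D3:**
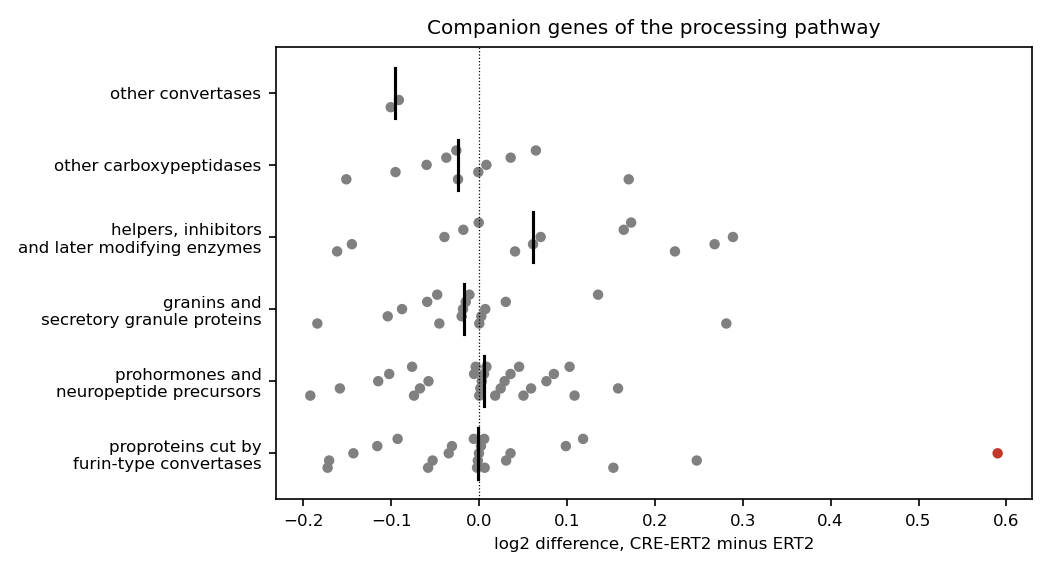
Log2 difference, CRE-ERT2 minus ERT2 (x axis), of the 92 measured companion genes in 6 groups by function (rows). Each point is a gene, the black bar is the median of its group, and the vertical shift of points within a row has no meaning. The 1 red point, Notch1 at 0.59, was called, and the grey points lie between -0.19 and 0.29.

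The gene that rose was Notch1, a receptor that furin-type convertases cut on its way to the cell surface. Notch1 had 12.43, 12.41 and 12.37 log2 units in the CRE-ERT2 arrays, against 11.91, 11.69 and 11.85 in the ERT2 arrays. All CRE-ERT2 arrays lay above all ERT2 arrays, and Notch1 differed by 0.59 (standard error 0.08), or 1.51-fold (limma adjusted p = 0.000551). The other 22 of 23 measured proproteins cut by furin-type convertases were not called. Among them the growth factor gene Tgfb1 differed by -0.01 and the protease gene Adam10 by 0.00 (both named after their values were seen). Of the 23, 2 (8.7%) had an unadjusted p under 0.05, against 16.4% of all genes. They were Notch1 and Itga6 (0.25, limma adjusted p = 0.114). The groups did not overlap for 4 of the 23, against 22.5% of all genes. Notch1 and Itga6 were higher, and Tfrc (-0.17) and Adam17 (-0.12) were lower. Itga6, Tfrc and Adam17 were also named after their values were seen. The median of the 23 was 0.00.

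Of the other convertase genes, 2 of 3 were measured and 0 were called with limma, Pcsk4 (-0.10, adjusted p = 0.614) and the site-1 protease gene Mbtps1 (-0.09, adjusted p = 0.649). Of the other carboxypeptidase genes, 11 of 13 were measured and 0 were called, with a median of -0.02 and 0 at an unadjusted p under 0.05. Over all genes the shares were 4.58% called and 16.4% at an unadjusted p under 0.05. The smallest p belonged to the mast cell carboxypeptidase gene Cpa3 (0.17, limma adjusted p = 0.321) and to Cpa4 (-0.15, adjusted p = 0.500). The differences of all 11 lay between -0.15 and 0.17.

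Helpers, inhibitors and later modifying enzymes comprised 13 genes, all measured, of which 0 were called with limma and 5 (38.5%) had an unadjusted p under 0.05, against 16.4% of all genes. All 5 were higher in the CRE-ERT2 arrays. The groups did not overlap for 6 of the 13, against 22.5% of all genes. Among these only Pacs1 was lower (-0.14, named after its values were seen). The median difference of the 13 was 0.06. The endothelin-converting enzyme gene Ece1 had the smallest p, with a difference of 0.29 and a limma adjusted p of 0.0687. Pam, which amidates the ends of peptides after Cpe has trimmed them, differed by 0.27 (limma adjusted p = 0.109). For both of these genes all 3 CRE-ERT2 arrays lay above all 3 ERT2 arrays. Scg5, the chaperone of PC2, differed by 0.06, and Pcsk1n, the precursor of an inhibitor of PC1, by -0.02 (both named after their values were seen).

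Granins and secretory granule proteins had 16 genes measured, 0 called with limma and 2 at an unadjusted p under 0.05, with a median of -0.02. Hid1, which takes part in forming dense core granules, had the smallest p, at a difference of 0.28 and a limma adjusted p of 0.0586. Rab27a, a small GTPase that docks granules, differed by -0.18 (limma adjusted p = 0.229). Of 29 prohormone and neuropeptide precursor genes, 27 were measured, 0 were called with limma and 0 had an unadjusted p under 0.05, with a median of 0.01. For both lists the shares over all genes were 4.58% called and 16.4% at an unadjusted p under 0.05. Trh (-0.19, limma adjusted p = 0.388) and Vip (-0.16, limma adjusted p = 0.488) had the smallest p among the precursors. The proglucagon gene Gcg differed by 0.00 and the proenkephalin gene Penk by 0.05 (both named after their values were seen).

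The genes whose pattern was closest to that of Cpe were Ctla4, Htra3, Cyyr1, Cd74 and AA467197. Likeness was the root mean square difference over the 6 arrays between values centred on each gene's own mean. That distance was 0.07 log2 units for the inhibitory receptor gene Ctla4, 0.08 for the secreted protease gene Htra3 and 0.11 for Cyyr1. It was 0.11 for Cd74, which encodes the chain that escorts MHC class II molecules, and 0.15 for AA467197. The log2 difference between the groups was 1.56 for Cpe, 1.47 for Ctla4, 1.43 for Htra3, 1.40 for Cyyr1, 1.47 for Cd74 and 1.41 for AA467197. The distance mainly finds genes with an increase of similar size, and it is a description over 6 arrays in 2 groups.

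**Figure D4:**
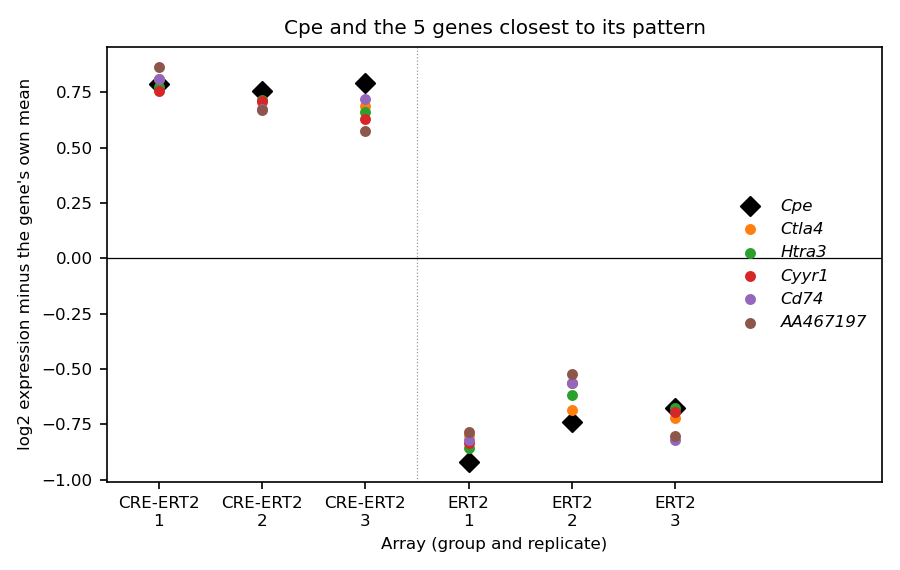
Log2 expression minus the gene's own mean over the 6 arrays (y axis) for Cpe (black diamonds) and the 5 genes closest to it (coloured points) on each array (x axis). All 6 genes lie between 0.58 and 0.86 on the CRE-ERT2 arrays and between -0.92 and -0.52 on the ERT2 arrays.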

How the data were processed

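The authors deposited log2 expression, 1 value for each probe set on each array, from biotin-labelled total RNA on Affymetrix arrays, per the labels' protocols. The submitters' processing notes name RMA (background correction, normalization between arrays and summary of probes) and Partek 6.5; the log2 scale was read from the values, and no source used here gives a genome build. Array medians were 7.90 to 7.98. Of 35556 probe sets, the platform annotation names 1 gene for 21789, several for 1621 and none for 12146; the first kind was used, with the brightest probe set per gene. Groups and replicate numbers came from sample titles. The groups were compared over all genes with limma 3.58.1 in R 4.3.3 (lmFit, eBayes, Benjamini-Hochberg), which was tested on simulated data. The median SD within groups was 0.0973 log2 units. No dim filter was applied, and scan dates and scanner output were not used, so batches could not be tested. The number of arrays limits precision. No arrays were duplicates (8 to 57 identical values in a pair).

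Members and lists were chosen with earlier results of these data known. All members are named, then each called companion gene or otherwise the 2 of its list with the smallest p, and the 5 genes most like Cpe. The alternatives were further quantile normalization, median centring, a dim filter, other probe set rules, a trended robust variance, array weights, a replicate block and leaving out each array.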

Additional observations from a re-analysis of the deposited data

How the results depend on the processing

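Cpe and Cpm were called with limma, with the same sign, under all 14 alternatives. The difference of Cpe ranged from 1.49 without ERT2 replicate 1 to 1.61 without ERT2 replicate 3, and that of Cpm from -0.99 without ERT2 replicate 3 to -0.82 without ERT2 replicate 2. The other 7 members were called under none of theirs (13 for Pcsk1 and Pcsk5, which the dim filter removes). Of the companion genes, Notch1 was called under all 14, and 3 genes were called higher after a further quantile normalization (with Ece1 and Itga6), with the dimmest genes left out (with Ece1 and Hid1) and with a trended, robust variance (with Ece1 and Itga6). Itga6 is named here after its values were seen, and the cause was not tested.

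Over the whole table, 188 genes were called higher and 110 lower when all 35556 probe sets were tested, against 459 and 455 as reported. With the dimmest genes left out 540 were called higher and 720 lower. With a trended, robust variance the counts were 587 and 957, and with the replicate number as a block 326 and 263. Leaving out 1 array gave 286 (without CRE-ERT2 replicate 3) to 424 (without ERT2 replicate 2) called higher and 167 (without CRE-ERT2 replicate 3) to 561 (without ERT2 replicate 3) called lower; 288 were called higher without CRE-ERT2 replicate 1, and 222 and 233 lower without CRE-ERT2 replicate 2 and ERT2 replicate 1. After a further quantile normalization 60.9% of calls were higher, against 50.2%. Over the alternatives this share ran from 38% with a trended, robust variance to 63.1%. The latter came from testing all probe sets and from leaving out CRE-ERT2 replicate 3. Deviations of same-numbered arrays correlated at -0.11, -0.37 and -0.07, so the numbers are not taken to pair the samples. The block ended no call of a member or of Notch1. Over all probe sets, CRE-ERT2 replicate 1 correlated with ERT2 replicate 2 at 0.9951, and CRE-ERT2 replicate 2 with ERT2 replicate 3 at 0.9949. Other pairs across the groups lay between 0.9914 and 0.9944, and pairs within a group between 0.9922 and 0.9963. Whether differently numbered arrays share a batch across the groups was not tested. Signal over background is unknown, which limits what can be said of Pcsk1, Pcsk5 and Cpe in the ERT2 arrays.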
